A study of Xenopus laevis with 6 samples.

Results

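Intermediate filament genes were followed in pronephric explants of Xenopus laevis, the African clawed frog. The explants are small rectangular blocks of embryonic flank, taken at stage 24 where the first kidney forms, and 300 of them were extracted together. Of the 6 pooled samples, 3 were untreated and 3 were treated with bhh, banded hedgehog, a secreted ligand of the hedgehog family. The labels name neither strain nor genotype, do not say how bhh was supplied, and name no mock-treated group, so bhh itself and the treatment procedure cannot be told apart. They do not say either that pools came from separate batches of embryos, so p-values measure only the spread between these samples. Members were chosen by a rule on gene symbols that uses no signal, though earlier results of these data were known. The rule took every probe set with 1 symbol that names a keratin (krt), vimentin, desmin, peripherin, neurofilament, internexin (ina), nestin or lamin. This gave 41 of the 7531 gene symbols, read by 47 of the 15491 probe sets that are not array controls. One of them, krtcap3.L, matched by name only, since it encodes a membrane protein of keratinocytes and no filament protein. Genes named nefh, gfap or synm were not analysed here.

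Intermediate filaments are rope-like polymers that give cells and nuclei mechanical strength, and the protein they are made of differs by tissue. Keratins form obligate pairs of an acidic type I and a basic type II chain and fill epithelial cells; desmin links the contractile units of muscle; vimentin is typical of mesenchyme; peripherin, neurofilaments, internexin and nestin are typical of neurons and their precursors; lamins line the inside of the nuclear envelope. X. laevis has keratin genes that are used in the embryonic, larval or adult skin, and a past doubling of its genome left many genes in 2 copies, which carry the endings .L and .S.

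The arrays had like overall levels, with a median signal between 148.7 and 169.2 and a trimmed mean of 500.1 on each. Hybridization controls, which are added in equal amount, had a median signal of 2235, 1233 and 879 on untreated arrays 1, 2 and 3 and of 1795, 1393 and 780 on treated arrays 1, 2 and 3. Among markers of the labelled tissue, 3 of 4 pronephric genes with a probe set were above the control level on all 6 arrays. That level is a signal of 37.6, which 95% of the single signals of control probe sets for bacterial and tag sequences did not exceed. The exception was lhx1.L, of an early kidney transcription factor, which fell and was below it on treated arrays 1 and 3, while osr1.L, of another such factor, rose, a call that was lost with untreated 2, untreated 3, treated 2 or treated 3 omitted (adjusted p up to 0.175). Summed signals were 294 to 420 on untreated and 322 to 376 on treated arrays for 7 notochord genes, and 237 to 242 and 302 to 402 for 7 endoderm and blood genes; none of the 3 and 2 tested passed limma (0 and 1 at an unadjusted p under 0.05). With the replicate block the globin gene hba3.L passed (log2 change 1.09 ± 0.35 (SE), adjusted p = 0.218, and 0.019 with the block). The 27 member probe sets tested, for 22 genes, were above 37.6 on all 6 arrays, with signals from 53.6 to 39234.1. The other 20 were among the dimmest 25% of all probe sets, left out of the test, and 18 of them were below 37.6 on every array.

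In treated explants 2 filament genes fell, des.1.S and prph.S, and none rose. These are 2 of 27 tested probe sets, where 1.38% of all 11618 tested probe sets passed limma at an adjusted p under 0.05 in either direction and 0.637% with a lower signal after treatment. The median log2 change of the 27 (treated minus untreated) was -0.09, against 0.003 over all probe sets tested, and single values ran from -1.02 to 0.37. With the replicate number as a block, 3 members passed, the third being krt18.1.L, which was higher, while 6.31% of all probe sets passed that fit, 3.65% higher and 2.66% lower. Unadjusted p-values were under 0.05 for 2 members with higher and 3 with lower signals, against 6.4% and 5.81% of all probe sets. The 3 treated arrays lay wholly above the untreated ones for 3 members and wholly below for 4, with 20 overlapping; of all probe sets tested, 18.3% did not overlap, 9.3% with treated arrays above and 9.01% below. With quantile normalization in place of the deposited scale, 5 of the 27 changed sign, all of them keratin probe sets, and the median became 0.04. Leaving out single arrays moved the count of 2: with treated array 3 omitted it was 1, and with untreated 2, untreated 3 or treated 2 omitted it was 0. It was 4, all lower, without both arrays numbered 1, a setting in which 581 of all 11618 probe sets passed, 243 of them lower. In the main fit 160 of all probe sets passed, 74 of them lower.

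**Figure D1:**
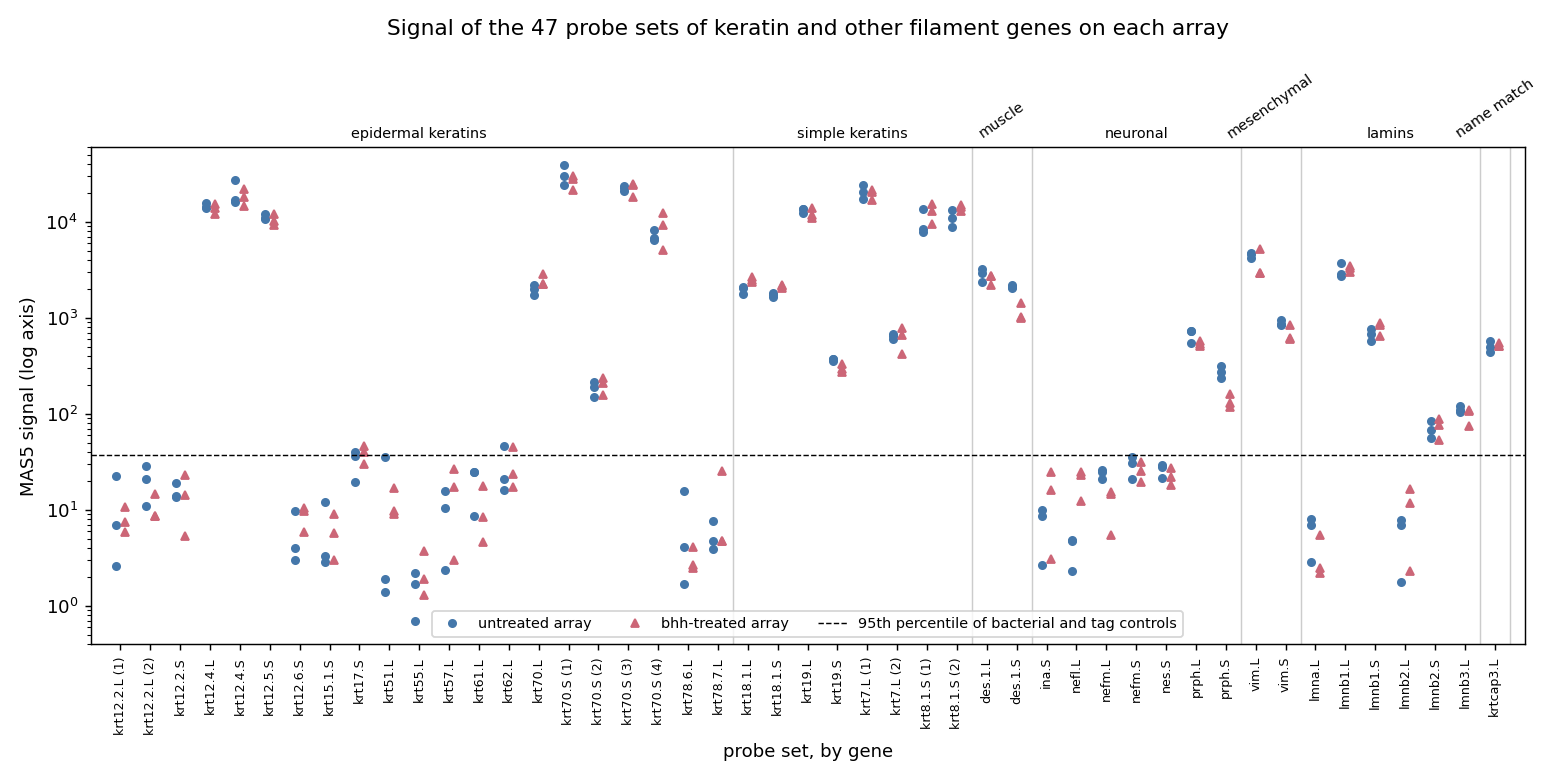
MAS5 signal (log axis) of each of the 47 probe sets on the 3 untreated arrays (circles) and the 3 bhh-treated arrays (triangles), ordered by tissue class; the dashed line is the control level of 37.6, and numbers in brackets tell probe sets of the same gene apart. Within the epidermal keratins, the probe sets lie either above the line or around and below it, while the simple epithelial keratins all lie above it.

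Epidermal keratin probe sets were either above the control level on all arrays or near and below it. Those of krt70.L, krt70.S, krt12.4.L, krt12.4.S and krt12.5.S, whose RefSeq synonyms are xk70 and xk81, the keratins of embryonic frog skin, were above the control level on all arrays, 8 of 8. Of the 13 probe sets of the other 12 epidermal keratin genes, 11 were below it on every array. These included krt51.L, krt55.L and krt12.6.S, which have xak synonyms and are known as keratins of adult skin, with signals between 0.7 and 36.0. The larval keratin gene krt62.L passed 37.6 on 2 arrays, untreated array 1 with 46.7 and treated array 1 with 45.1, and krt17.S on 3 arrays, with at most 46.1. A signal below the control level does not show that a gene was silent, since probe sets differ in how well they read their target.

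None of the 8 tested probe sets of embryonic epidermal keratins passed limma, also none in the blocked fit and 0 at an unadjusted p under 0.05, and their median log2 change was -0.06, or 0.08 with quantile normalization. The type I keratin gene krt12.4.L had signals of 15800.2, 14378.1 and 13973.1 in untreated and 13812.7, 15262.2 and 12123.5 in treated explants. The groups overlapped, and the 95% interval of the log2 change ran from -0.43 to 0.22. Its copy krt12.4.S had 27448.5, 15880.7 and 16988.3 against 21968.2, 18061.5 and 14481.5, with the highest value of each group on array 1 and an interval from -0.63 to 0.38. For krt12.5.S the means were 11236 ± 710 and 10501 ± 1436 (SD, n = 3 each), an interval from -0.43 to 0.22. These intervals leave room for changes of either sign within about those bounds, so they do not show that the levels were equal.

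The krt70 genes gave the widest range within the class. krt70.L had signals of 1995.8, 2200.6 and 1744.9 in untreated and of 2831.2, 2234.0 and 2227.6 in treated explants, so each treated array lay above each untreated one. Its log2 change was 0.29 ± 0.15 (SE), with a limma adjusted p = 0.454 (0.129 when blocked by number). The 4 probe sets of krt70.S had log2 changes of -0.22, 0.12, -0.03 and 0.24, and all 4 had overlapping groups. The brightest went from 39234.1, 29777.8 and 24248.5 to 30246.4, 27870.5 and 21299.4, which was lower in each of the same-numbered pairs. With quantile normalization 4 of the 8 epidermal probe sets changed sign, the copies of krt12.4 and 2 probe sets of krt70.S.

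Keratins classed by name as those of simple epithelia, the single-layered linings, had values of either sign. krt18.1, a type I keratin gene, and krt8.1, its usual type II partner, had positive values at all 4 of their probe sets, while those of krt19 and krt7.L were negative, except that the brighter probe set of krt7.L turned to 0.12 with quantile normalization. krt18.1.L had signals of 2053.0, 2085.3 and 1767.0 in untreated and 2687.0, 2496.8 and 2386.5 in treated explants. The groups did not overlap, and the log2 change was 0.36 ± 0.13 (SE), a 1.28-fold higher level with a limma adjusted p = 0.266 (0.041 with the replicate block). krt18.1.S went from 1651.9, 1815.1 and 1724.2 to 2143.4, 2059.6 and 2172.1, also with no overlap. Its log2 change was 0.30 ± 0.12 (SE), and its adjusted p = 0.336, or 0.097 with the block. Both copies were higher in all 3 same-numbered pairs, and both had an unadjusted p under 0.05.

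The 2 probe sets of krt8.1.S had log2 changes of 0.36 ± 0.23 and 0.37 ± 0.17 (SE) and overlapping groups (limma adjusted p = 0.585 and 0.411). One read 8386.4, 7795.6 and 13551.8 in untreated and 9486.2, 15171.2 and 13044.9 in treated explants. The low arrays of that probe set were thus untreated 1 and 2 and treated 1. The other read 10850.8, 8912.9 and 13192.6 against 14249.6, 14844.8 and 12893.8, with treated array 1 above every untreated array. krt19.S, of another type I keratin, went from 355.6, 373.6 and 372.3 to 293.7, 332.1 and 271.8, with every treated array below every untreated one and a log2 change of -0.30 ± 0.15 (SE, adjusted p = 0.454). Its copy krt19.L had 13688.3, 13627.8 and 12278.9 against 14001.9, 11808.2 and 10998.2, which overlap, and -0.11 ± 0.15. Both copies of krt19 also have krt15 and krt9 among their RefSeq synonyms. krt7.L is named after a simple epithelial type II keratin, but its RefSeq synonyms xck55 and krt5.7 are those of a frog type II keratin related to the basal epidermal form. Its 2 probe sets had intervals of the log2 change from -0.45 to 0.30 and from -0.55 to 0.36. None of the 8 tested probe sets of this class passed limma. At an unadjusted p under 0.05, 2 did, both higher, against 6.4% of all probe sets tested that were higher. Groups did not overlap for 2 with treated arrays above and 1 below, against 9.3% and 9.01% of all probe sets. The class median, with krt7.L and krt19 placed in the class by name, was 0.11, or 0.20 with quantile normalization.

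In the RefSeq gene order, 71 keratin genes stand in 6 runs of neighbours, each keratin gene at most 5 places from the next. The keratins with a probe set came from 4 of them. The run from krt18.1.L to krt80.L held 17 keratin genes, 6 with a probe set, and its .S counterpart 13 genes, 2 with a probe set. These carry the type II genes together with krt18.1, which lies beside krt8.1. The run from krt70.L to krt24.L held 21 genes, 7 with a probe set, and its .S counterpart 16, with 8; these carry the type I genes. Median log2 changes were -0.08 for the 3 tested probe sets of the first run, 0.36 for the 3 of its .S counterpart, -0.10 for the 3 of the .L run of type I genes and -0.10 for the 7 of its .S counterpart. All 3 values of the .S run of type II genes were above 0, while the other runs held values of either sign. Those 3 were krt18.1.S and 2 probe sets of krt8.1.S. In the .L counterpart krt18.1.L was also above 0, and the values below 0 were those of krt7.L. Neither krt8.1.L nor krt7.S had a probe set, so the 2 runs were not read at the same genes and are not compared.

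The explants are a mixture of tissues, so a lower signal can come from fewer cells of a type or from less RNA per cell, which cannot be told apart. Epidermal markers that are no filament genes were read beside the keratins. Of 11 tested genes on that list none passed limma (unadjusted, 1 was higher and 1 lower, as in the blocked fit), 7 had values above 0, and the median was 0.18. Among all probe sets tested, 6.4% rose and 5.81% fell before adjustment, and 3.65% and 2.66% did so with the block. The listed genes with the smallest p were dlx3.S and foxi1.L, both of transcription factors of the ectoderm, with log2 changes of 0.41 and -0.41. Signals of all 12 genes on the list summed to between 43206 and 51970 on untreated and between 33941 and 47829 on treated arrays. Most of that sum was itln1.L, a secreted lectin gene of skin named after its values were seen, with 38235.1, 30605.1 and 29632.8 in untreated and 33340.3, 25588.0 and 19155.7 in treated explants.

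**Figure D2:**
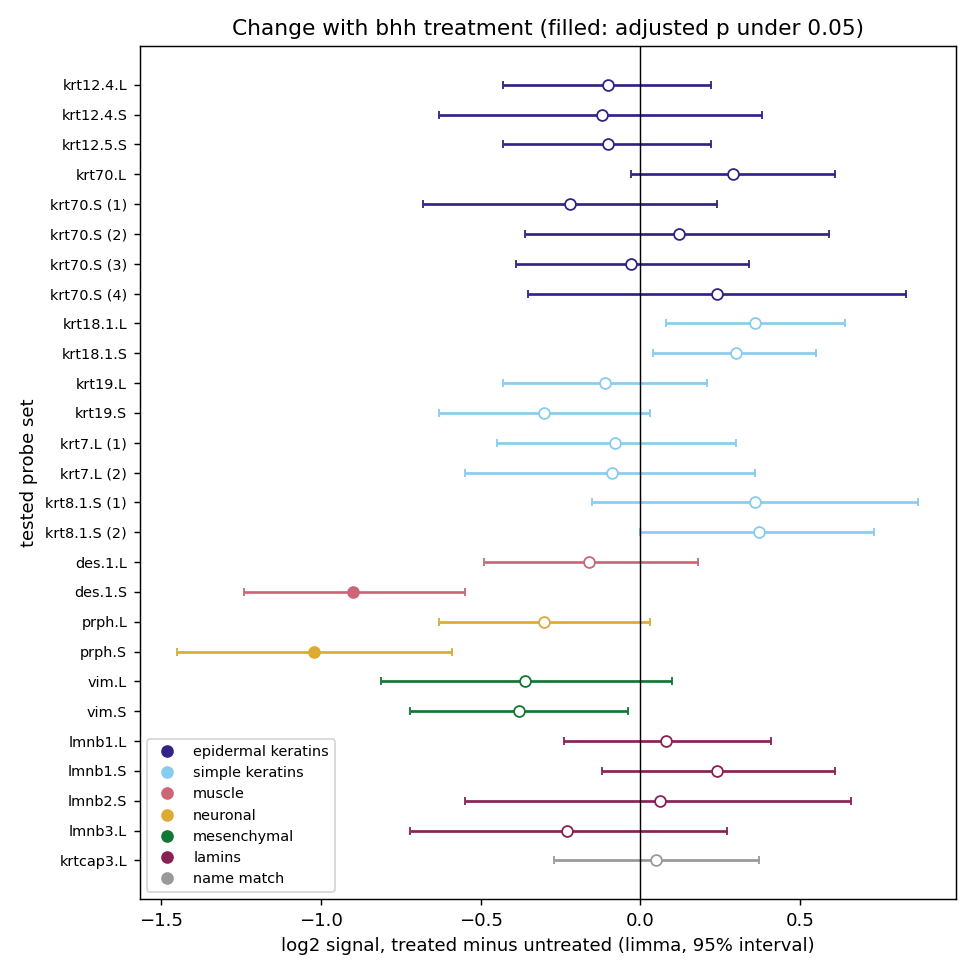
Log2 change (treated minus untreated) with its 95% interval from limma for the 27 tested probe sets, coloured by tissue class; filled points passed at an adjusted p under 0.05. The points of des.1.S (-0.90) and prph.S (-1.02) are filled, and the keratins lie between -0.30 and 0.37.

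Desmin, the filament protein of muscle, was read by 1 probe set for each copy. des.1.S had signals of 2057.8, 2195.0 and 2093.0 in untreated and 1444.8, 985.1 and 1025.6 in treated explants. All treated arrays lay below all untreated ones, with treated array 1 the highest of the 3. The gene fell 1.86-fold (log2 change -0.90 ± 0.16 (SE), limma adjusted p = 0.018, and 0.000232 in the blocked fit). It no longer passed when untreated array 2, untreated array 3, treated array 2 or treated array 3 was omitted (largest adjusted p 0.113) or with eBayes without trend (0.0734), while the log2 change stayed between -1.07 and -0.80. des.1.L had 2364.4, 3251.6 and 2905.5 against 2197.5, 2707.9 and 2717.4, which overlap, with a log2 change of -0.16 ± 0.15 and an interval from -0.49 to 0.18.

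Some muscle markers fell beside desmin. Of 16 tested muscle genes that are no filament genes, 3 fell and none rose in limma (11 lower and 1 higher with the replicate block), 12 were below 0, and the median log2 change was -0.43. Over all probe sets tested, 0.637% were lower in limma, and 2.66% were lower and 3.65% higher with the block. The muscle genes that fell in limma were myh8.L, of a muscle myosin (-0.84 ± 0.12, SE), tpm2.L, of the thin-filament protein tropomyosin (-0.64 ± 0.12), and myf5.L, of a transcription factor of muscle precursors (-1.34 ± 0.24). With single arrays omitted, myh8.L passed each time (largest adjusted p 0.041), tpm2.L passed only with treated 1 omitted (otherwise up to 0.214), and myf5.L failed with untreated 2, untreated 3 or treated 3 omitted (up to 0.104). The gene that was higher with the block was myod1.S, of another muscle transcription factor, with 0.79 ± 0.17 (limma adjusted p = 0.053, and 0.0059 with the block). Signals of all 18 genes on the list summed to between 117985 and 133474 on untreated and to between 86177 and 104797 on treated arrays. tpm2.S was below the control level on all arrays, and tnnc1.L on 4 of the 6. The part of these muscle genes in the des.1.S result was not tested.

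Peripherin, a type III filament protein of neurons, gave the largest change among the tested members. prph.S had signals of 238.6, 316.0 and 272.6 in untreated and 117.6, 129.3 and 162.4 in treated explants, with no overlap. It fell 2.03-fold (log2 change -1.02 ± 0.19 (SE), limma adjusted p = 0.028, and 0.0013 in the blocked fit). It missed the threshold when untreated array 2, untreated array 3, treated array 1 or treated array 2 was omitted (largest adjusted p 0.174), with log2 changes between -1.15 and -0.92 whichever array was left out. Its copy prph.L had 550.0, 724.2 and 725.4 in untreated and 505.9, 538.7 and 570.4 in treated explants. Untreated array 1 lay within the treated range, and the log2 change was -0.30 ± 0.15 (SE, adjusted p = 0.463). It was lower in each same-numbered pair.

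The other neuronal filament genes were too dim to be tested. The 5 probe sets of ina.S, nefl.L, nefm.L, nefm.S and nes.S were below 37.6 on all 6 arrays. For nefl.L, the light neurofilament chain, treated arrays lay above untreated ones (4.9, 4.7 and 2.3 against values of at least 12.3), and for nefm.L, the medium chain, below them (21.1, 24.9 and 26.1 against 5.5, 15.3 and 14.6). Both groups were under the control level in each case, so no fold is given. Without the filter on dim probe sets, the smallest adjusted p among the 20 untested members was 0.190.

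Among neural markers that are no filament genes, none of the 7 tested passed limma. Of all probe sets tested, 5.81% were lower at an unadjusted p under 0.05 and 2.66% in the blocked fit. Here 2 genes were lower without adjustment, the same as in the blocked fit. These were tubb2b.S, of a tubulin of neural tissue, with 1544.5, 1649.4 and 1438.2 against 1050.2, 1269.2 and 1140.1, and snap25.L, of a synaptic protein, with a log2 change of -1.02 ± 0.32 (SE) and overlapping groups. The median was -0.23, and 5 of 7 were below 0. Of the others, tubb3.L had a log2 change of -0.40, sox3.L of -0.23, sox2.L of -0.02 and sox3.S of 0.00. That of neurod1.L was 0.89 ± 0.57 (SE), with untreated array 1 at 12.8, below the control level. Without both arrays numbered 1 the neurod1.L value was 0.25. Signals of all 14 genes on the list summed to between 2551 and 2769 on untreated and to between 2001 and 2137 on treated arrays. Most of that sum was tubb2b.S alone. The cell adhesion gene ncam1.L was below the control level on every array. The part of neural cells in the prph.S result was not tested.

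In both copies of vimentin, treated array 1 stood apart from the other treated arrays. vim.L had signals of 4659.0, 4196.2 and 4736.8 in untreated and 5182.4, 2916.0 and 2907.0 in treated explants. Treated array 1 was thus the highest of the 6, and treated arrays 2 and 3 the lowest. Treated array 1 also had the highest 3' to 5' ratio of GAPDH, a measure of RNA quality, and its part in the vimentin values was not tested. vim.S had 841.6, 941.9 and 865.8 against 838.1, 601.7 and 614.1, again with treated array 1 beside the untreated arrays and the other treated arrays lower. Neither passed over all 6 arrays: the log2 changes were -0.36 ± 0.21 and -0.38 ± 0.15 (SE), with limma adjusted p = 0.537 and 0.359, or 0.122 and 0.096 with the replicate block. Without both arrays numbered 1, a setting chosen after seeing the data, they were -0.61 and -0.57 (adjusted p = 0.013 and 0.018), and both also passed with array weights (0.040 and 0.021). More probe sets of the whole table passed in these settings too, 581 without both arrays numbered 1 and 657 with array weights, against 160 in the main fit. Without treated array 1 alone vim.L passed (0.0395) and vim.S did not (0.083).

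Mesenchyme and neural crest markers had values of either sign. Of 8 tested genes, 1 rose, against 0.74% of all probe sets tested. This was snai1.S, of a transcription factor of migrating cells, with a log2 change of 0.77 ± 0.13 (SE, limma adjusted p = 0.015). It did not pass with untreated 2, untreated 3, treated 2 or treated 3 omitted (adjusted p up to 0.109). With the replicate block 3 of the 8 were higher and 2 lower, against 3.65% and 2.66% of all probe sets tested. The 3 were snai1.S, pdgfra.L (0.85 ± 0.27, SE) and sox9.S (1.09 ± 0.29). The 2 were col1a1.S (-0.51 ± 0.14) and col1a2.L (-0.59 ± 0.21). The median was 0.43. Signals of the list summed to between 2680 and 2739 on untreated and between 3000 and 3807 on treated arrays. None of these 8 genes was below the control level on every array.

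Nuclear lamins did not pass. Of the 4 tested probe sets none passed limma, blocked or not, with 0 at an unadjusted p under 0.05, and their median log2 change was 0.07. The B-type lamin gene lmnb1.L had 3705.8, 2827.4 and 2740.6 in untreated and 3492.8, 2989.7 and 3271.1 in treated explants, with an interval of the log2 change from -0.24 to 0.41. lmnb1.S had 770.8, 682.9 and 572.4 against 654.0, 851.8 and 893.2, with overlapping groups and 0.24 ± 0.17 (SE). lmnb2.S gave signals of 53.6 to 88.5, and lmnb3.L, of the main lamin of the frog egg, of 75.0 to 121.7; their intervals ran from -0.55 to 0.66 and from -0.72 to 0.27. lmna.L, of the A-type lamin that frogs are known to make later in development, stayed between 2.2 and 8.1, and lmnb2.L was below the control level as well. krtcap3.L, the member by name only, had 0.05 ± 0.14.

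Genes whose products anchor, bind or process filament proteins or lamins were taken as a further list. It held 45 gene names, among them desmosome, hemidesmosome and plakin genes on the cytoplasmic side and genes of the nuclear lamina. Of these names 25 had a probe set, for 30 symbols with both copies counted. Of 23 tested symbols none passed limma, with 2 lower and none higher before adjustment, and 1 lower and none higher in the blocked fit. Of all probe sets tested, 5.81% were lower at an unadjusted p under 0.05 and 2.66% in the blocked fit. The median log2 change was 0.12, and 15 of 23 were above 0. The smallest p-values were those of tor1a.L, an ATPase of the nuclear envelope (135.0, 160.4 and 165.5 against 88.5, 126.0 and 86.3, log2 change -0.63 ± 0.22), and pof1b.S, of an epithelial junction protein (784.4, 781.7 and 938.2 against 602.1, 582.4 and 719.0, -0.40 ± 0.14). The latter is the one that passed with the block. For both, every treated array lay below every untreated one, as for 9.01% of all probe sets tested.

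Both copies could be tested for 8 filament genes, and the change of the .L copy was set against that of the .S copy on each array. The copies had the same sign in 7 of 8 pairs, krt70 being the exception. The share of same-sign pairs over all 812 was not counted. For krt70.S the brightest probe set was used, with -0.22, or 0.01 with quantile normalization. Its other probe sets had 0.12, -0.03 and 0.24, against 0.29 for krt70.L. For vim, krt12.4 and krt18.1 the .L minus .S difference in log2 change was 0.02, 0.02 and 0.06, with 95% intervals from -0.43 to 0.48, from -0.49 to 0.53 and from -0.33 to 0.46. The difference was 0.72 ± 0.19 (SE) for prph and 0.74 ± 0.26 for des.1, in both cases with the more negative change in the .S copy. The arrays of both groups stood apart for these pairs and for krt70. How often this held over all 812 pairs was not counted, so it sets these pairs apart from no others. No pair of the 8 passed the limma test of the difference over 812 pairs, which 0.369% of all pairs did; 2 had an unadjusted p under 0.05, prph and des.1, as had 7.27% of all pairs. Their adjusted p = 0.390 and 0.477, or 0.227 and 0.214 with the replicate block, and exact permutation over arrays gave 0.1 for each, the smallest value that 3 against 3 arrays allow. So the call of the .S copy and the lack of one for the .L copy do not show that the copies of des.1 or prph differed in their change. How well each probe set tells the copies apart was not tested.

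**Figure D3:**
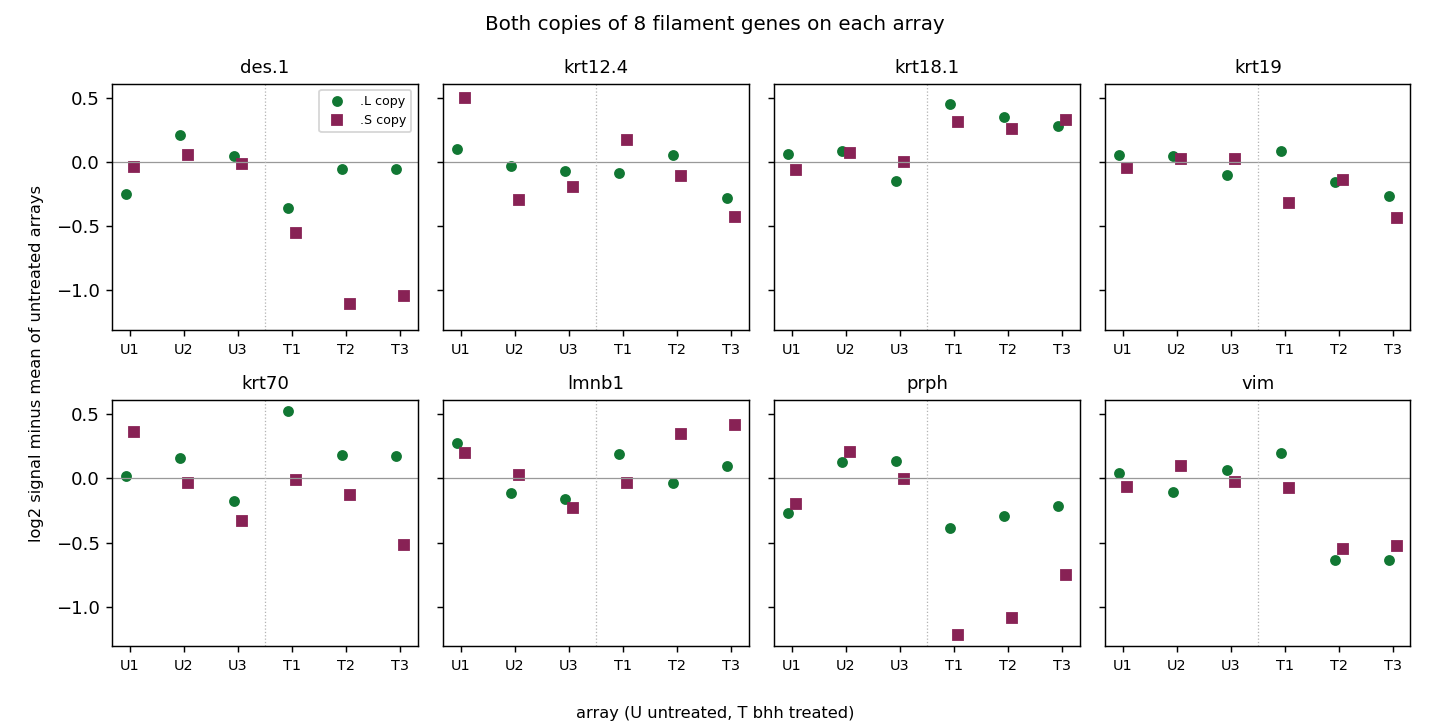
Log2 signal of the .L copy (circles) and the .S copy (squares) of 8 filament genes on each array, minus the mean of that copy's untreated arrays; U and T are untreated and bhh-treated arrays. Both copies of vim are low on T2 and T3, while for des.1 and prph the .S copy lies below the .L copy on T1, T2 and T3.

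Many bright probe sets read highest on array 1. For the 9 tested members with a mean signal over 10000, all of them keratin probe sets, array 1 was the highest of its group in both groups for 5, or 55.6%. The same held for 161 of 224 probe sets of that brightness over the whole table, or 71.9%, and for 2304 of all 11618, or 19.8%. The hybridization controls had the same order in both groups, array 1 highest and array 3 lowest. So had the 3' to 5' ratio of GAPDH, which read 4.1, 3.59 and 3.31 for untreated explants and 4.42, 3.67 and 3.01 for treated ones (arrays 1, 2 and 3). The exceptions among the 9 were both probe sets of krt8.1.S, with untreated array 3 and treated array 2 highest, and krt12.4.L and krt12.5.S, with treated array 2 highest. The part of this order in the spread of the keratin signals was not tested.

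**Figure D4:**
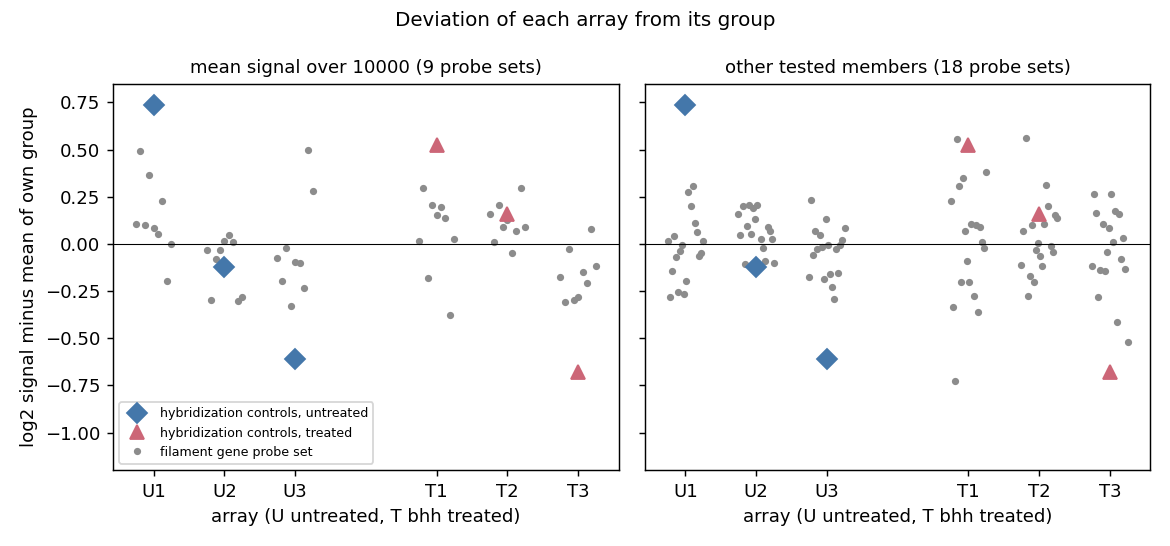
Log2 signal of each array minus the mean of its own group, for the 9 tested probe sets with a mean signal over 10000 (left) and the other 18 tested probe sets (right), as small dots; large symbols are the median of the hybridization controls. On the left most dots lie above 0 on U1 and T1 and below 0 on U3 and T3; on the right they scatter on both sides of 0 on each array.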

How the data were processed

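RNA of 3 untreated and 3 bhh-treated pools was hybridised to 1-colour Affymetrix arrays, 1 array per pool. The deposited values are linear intensity values, 1 for each probe set on each array. The authors computed them with MAS5, which the submitters' processing notes name without version or settings. MAS5 scales each array to a common level, and the trimmed mean signal was 500.1 on all 6 arrays. Depth has no counterpart on arrays: the number of arrays limits the precision. No pair of arrays shared more than 0.25% identical values.

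From 15611 probe sets, 120 controls were left out. Of the other 15491, 9304 had 1 symbol in the platform annotation, 195 several and 5992 none; 9227 of the 9304 matched the RefSeq table of assembly Xenopus_laevis_v10.1 by gene ID, all 47 members among them. The dimmest 25% of probe sets (mean log2 intensity) were dropped. The groups were then compared two-sided on the log2 scale with lmFit and trended eBayes of limma 3.58.1, run in R 4.3.3, and p-values were adjusted over all 11618 tested with the Benjamini-Hochberg method. The control level, a signal of 37.6, is the 95th percentile of the single signals of 44 controls for bacterial and tag sequences, pooled over all arrays. Differences between the .L and .S copies of a gene were fitted with limma over 812 pairs, with the brightest tested probe set of each copy. The fits were also run on simulated data with independent noise on each array. That setting lacks the correlation between same-numbered arrays given below, so it does not test the fits under it.

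Same-numbered arrays deviated from their group means together, with correlations of 0.407, 0.178 and 0.298 for numbers 1, 2 and 3, all above the limit of 0.1 set for pairing. Arrays of unlike numbers 2 and 3 correlated at 0.147 and 0.173 as well, also above that limit. The limit thus does not show that numbers 2 and 3 mark separate pairs. By the limit as set, the fit with the replicate number as a block is given where it changes a call. Replicates are separate pools per the labels, with no word on separate batches of embryos.

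The alternatives were that block, quantile normalization, an offset of 16, no filter, a filter at 50%, eBayes without trend, array weights and leaving out each array; leaving out both arrays numbered 1 was added after seeing the data. Members, classes, lists and the rule for named genes were chosen with earlier results of these data known. The rule named each member past the test, the brightest member and the one with the smallest p in each class, all .L and .S pairs tested, and up to 2 genes of a list. Further list genes were named after their values were seen.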

Additional observations from a re-analysis of the deposited data

How the results depend on the processing

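Of all 11618 tested probe sets 160 passed. The count was 733 with the replicate block, 95 with eBayes without trend, 657 with array weights, 581 without both arrays numbered 1, and between 61 and 186 with 1 array left out. The count of filament gene probe sets past the test, 2, became 1 with eBayes without trend, 4 with array weights and 4 without both arrays numbered 1, and lay between 0 and 2 with 1 array left out; with the replicate block it was 3. The count of filament partner genes, 0, became 1 with the replicate block and stayed at 0 in the other settings. Of 812 copy pairs 3 passed, none of them filament genes; this count lay between 0 and 3 with 1 array left out and was 4 with the replicate block. Signs opposite to those reported were found for members that had not passed. With quantile normalization they were 0.04 for krt12.4.L, 0.06 for krt12.4.S, 0.12 for krt7.L and 0.01 for krt70.S. With 1 array left out, krt12.4.S ran from -0.27 to 0.12, krt7.L from -0.19 to 0.04 and krtcap3.L from -0.05 to 0.14. The cause was not tested. The precision is limited by 3 arrays per group.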
